A study of Mus musculus with 2 samples.

Results

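NF-kappaB is a family of dimeric transcription factors that cells use to switch on genes of inflammation, survival and adhesion. In resting cells the dimers are held in the cytoplasm by IkappaB proteins. Signals from the receptors of tumour necrosis factor, interleukin 1 or bacterial products activate a kinase complex that marks IkappaB for degradation, and the freed dimers enter the nucleus. Many of the genes they induce encode their own inhibitors, so that the response limits itself. A second, slower branch runs through processing of the Nfkb2 precursor and acts through Relb. In the lung the pathway is known from epithelium, endothelium, macrophages and lymphocytes.

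The 10 genes described here are 3 subunits (Nfkb1, Nfkb2 and Relb), 5 genes of inhibitors and signalling adaptors (Nfkbia, Nfkbie, Tnfaip3, Birc3 and Traf1), and 2 effectors, the cytokine Tnf and the adhesion receptor Icam1. They were found by symbol, through the RefSeq accession of each probe; the rule used no measured value, but the list was drawn up with earlier results of these data known. All 10 were measured on both arrays, by 12 probes, out of 15495 genes measured on both arrays and 20886 gene symbols represented on the design. The groups were labelled as whole lung of male C57BL6/N mice aged 6 weeks and whole lung of male C57BL6/N mice of the same age carrying an HSP27 overexpression transgene. Both received bleomycin, which damages alveolar tissue and is followed by scarring, into the trachea at 1.25 mg/kg, and lungs were taken 14 days later. Each group is 1 array, and no lung without bleomycin was analysed here. The promoter of the transgene, the species of its HSP27 and the number of animals behind each RNA sample are not given in the sources used here.

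The check of the transgene and of the labels came first. Hspb1, the mouse HSP27 gene, read 41040 and 53554 on the C57BL6/N and transgenic arrays, a log2 difference of 0.24, and whether its probe detects the transgene is not known. The library labelled male C57BL6/N gave signal for Xist, the RNA of the inactive X chromosome, at least 36.8-fold above the transgenic array, with signals of 415 and 3.09. Of 5 sex-linked genes, the Y-linked Ddx3y, Eif2s3y and Uty were lower on it, by between 1.91 and 2.11 on the log2 scale. These still cleared background there, with Ddx3y at 508 against 2437, but Uty was dim, at 17.1 against 72.5. The Y-linked Kdm5d cleared it in the transgenic lung only, with dim signals of 3.81 for C57BL6/N and 13.6 for transgenic lung. The C57BL6/N array thus carried Xist and some Y-linked signal, against its label. The sex-linked transcripts and the transgene differ between the same 2 arrays, so sex and genotype cannot be told apart in any value below, and no value can be given without that array. All 9 markers of alveolar type 2 cells, which make surfactant, were well above background on both arrays. Markers of cardiac muscle (10 of 10 measured at least 1.5-fold higher, summed level 5.05 against 37.3) and fat (5 of 5, summed level 2.31 against 29.9) were higher on the transgenic array. Over all genes 10.2% were at least 1.5-fold higher there. Without Myh6 the muscle sums were 4.95 and 23.4, and without Cfd the fat sums were 2.29 and 11.4. In whole lung, fewer cells of a type and less RNA per cell cannot be told apart.

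Log2 signals of each array were first lowered by that array's 75th percentile. A difference is then the transgenic value less the C57BL6/N value, so that a positive number means more signal with the transgene. With 1 array per group there is no spread between animals and no test. Each signal carries the error that the scanner software assigns to it, and the errors of both arrays together give an error of 0.20 on most differences, or 0.22 for Tnf. The assigned errors rise almost in proportion to the signal, so this error is nearly the same for every member probe. A multiple of the measurement error given below thus restates the size of the difference and is no noise measured for that probe. The spread between repeated spots of a probe was smaller, with an SD of 0.15 for dim, 0.06 for middle and 0.05 for bright probes. Both describe the measurement and not the animals. Signals of different probes are not compared, since probes differ in brightness for the same amount of RNA.

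The members differed in direction and most differed little. Of the 10, 6 were higher and 4 lower in the transgenic lung, with a median of 0.24 against -0.04 over all genes. Past 1.5-fold, a log2 difference of 0.58, there was 1 higher, Nfkbie, and 1 lower, Traf1, and no member reached 2-fold, which 3.81% of all genes did upward and 1.87% downward. Over all genes 10.2% passed 1.5-fold upward and 8.31% downward, so that 1 of 10 in each direction is near the background and no result about the members as a group. A difference of 0 lay near percentile 54.2 of all genes, so lower genes were somewhat more common than higher ones. These shares stand behind each count by direction below. Higher genes made up 55.1% of all genes past 1.5-fold, against 74.8% without scaling and 66.5% with cyclic loess. The differences of the other 8 lay between -0.38 and 0.38.

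**Figure D1:**
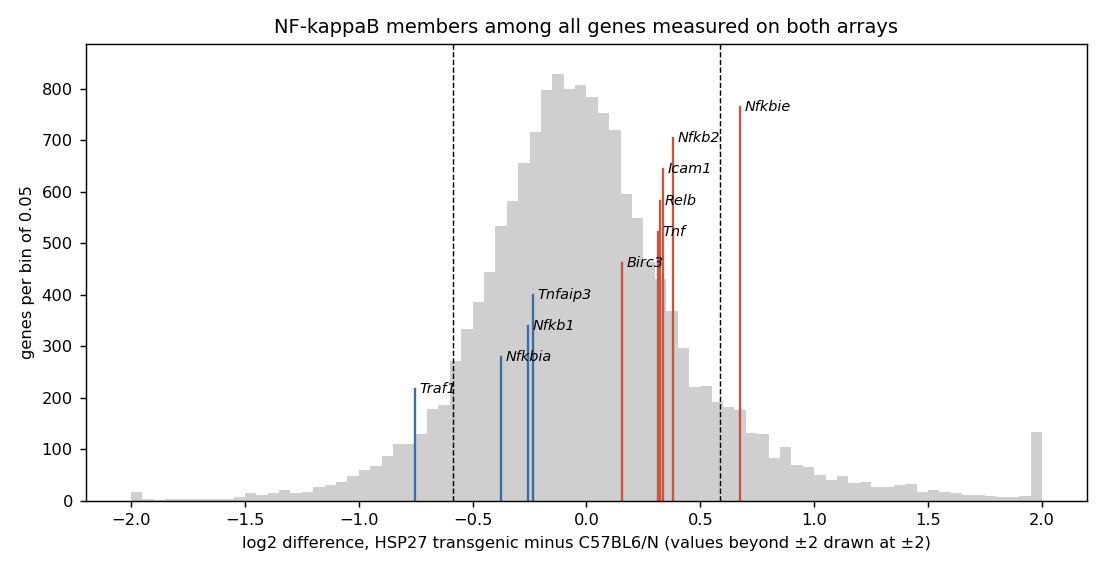
Distribution of log2 differences, transgenic minus C57BL6/N, over 15495 genes (grey bars, genes per bin), with the 10 members as vertical lines whose heights serve only to separate the names; dashed lines mark 1.5-fold. Traf1 at -0.75 and Nfkbie at 0.67 lie outside the dashed lines and the other 8 lie between them.

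NF-kappaB dimers bind kappaB sites, short runs of guanines followed by pyrimidines, and several members are textbook targets of the dimers they control. The windows of 250 bases before the annotated starts are therefore shown for the members at either end of the range, Nfkbie and Traf1, for the inhibitors Nfkbia and Tnfaip3, and for Nfkb2 and Icam1. The sequences are from RefSeq, build GRCm38.p6, which held 11 windows for 8 of the 10 members; Nfkb1 and Relb had no entry. Capitals mark matches to the NF-kappaB consensus or to the shorter motif GGANNTTCC, on either strand, and overlapping matches are joined.
Nfkbie, chr17:45555450-45555699, + strand: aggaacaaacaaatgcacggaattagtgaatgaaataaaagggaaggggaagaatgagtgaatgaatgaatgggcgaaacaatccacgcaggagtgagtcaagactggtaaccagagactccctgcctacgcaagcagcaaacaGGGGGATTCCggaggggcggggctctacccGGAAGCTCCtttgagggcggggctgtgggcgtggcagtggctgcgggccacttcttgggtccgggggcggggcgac
Traf1, chr2:34961773-34962022, - strand: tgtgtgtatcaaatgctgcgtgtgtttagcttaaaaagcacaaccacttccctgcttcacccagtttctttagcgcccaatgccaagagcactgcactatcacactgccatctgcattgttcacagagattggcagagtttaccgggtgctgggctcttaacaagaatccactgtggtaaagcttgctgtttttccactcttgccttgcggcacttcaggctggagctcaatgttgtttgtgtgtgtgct
Nfkbia, chr12:55492648-55492897, - strand: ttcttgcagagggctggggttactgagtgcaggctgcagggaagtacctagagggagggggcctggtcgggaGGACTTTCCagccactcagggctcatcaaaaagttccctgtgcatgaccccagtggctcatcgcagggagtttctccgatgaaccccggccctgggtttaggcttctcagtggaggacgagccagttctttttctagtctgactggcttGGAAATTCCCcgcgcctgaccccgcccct
Tnfaip3, first of its starts, chr10:19015411-19015660, - strand: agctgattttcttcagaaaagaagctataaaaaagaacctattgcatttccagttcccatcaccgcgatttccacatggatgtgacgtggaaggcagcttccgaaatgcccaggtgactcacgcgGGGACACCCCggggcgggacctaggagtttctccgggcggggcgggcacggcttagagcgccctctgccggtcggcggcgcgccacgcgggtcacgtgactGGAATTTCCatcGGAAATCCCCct
Nfkb2, first of its starts, chr19:46304487-46304736, + strand: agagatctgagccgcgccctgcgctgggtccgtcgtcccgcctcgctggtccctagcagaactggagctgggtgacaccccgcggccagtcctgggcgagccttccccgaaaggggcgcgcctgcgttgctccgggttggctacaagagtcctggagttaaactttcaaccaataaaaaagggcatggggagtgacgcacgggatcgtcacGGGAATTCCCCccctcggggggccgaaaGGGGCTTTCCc
Icam1, chr9:21015690-21015939, + strand: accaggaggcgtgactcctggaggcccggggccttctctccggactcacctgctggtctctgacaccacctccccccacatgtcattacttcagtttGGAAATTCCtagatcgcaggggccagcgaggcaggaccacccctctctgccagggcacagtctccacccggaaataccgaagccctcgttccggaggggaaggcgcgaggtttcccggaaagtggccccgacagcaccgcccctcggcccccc

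Matches stood in 8 of the 11 windows (72.7%) and in 6 of the 8 members, against 9.18% of 32851 windows of all genes and 10.9% of windows of genes measured on both arrays. The consensus was in 54.5% of member windows and 7.25% of all windows, and the shorter motif in 63.6% and 3.59%; the motifs can overlap and were then counted once. The median GC content was 58.8% in the member windows, 58.4% in windows of genes measured on both arrays and 52.4% in all. The members were picked as known targets or parts of the pathway, so the high share is a description of that choice. Nfkbia held GGACTTTCC 178 bases and GGAAATTCCC 29 bases before its start. Tnfaip3 held GGAATTTCC and GGAAATCCCC within the last 24 bases before its first start, and GGGACACCCC at 125 bases. Nfkbie held GGGGGATTCC at 106 bases and GGAAGCTCC at 76. The windows of Traf1 and Birc3 held no match to these letters, which says nothing of sites elsewhere.

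**Figure D2:**
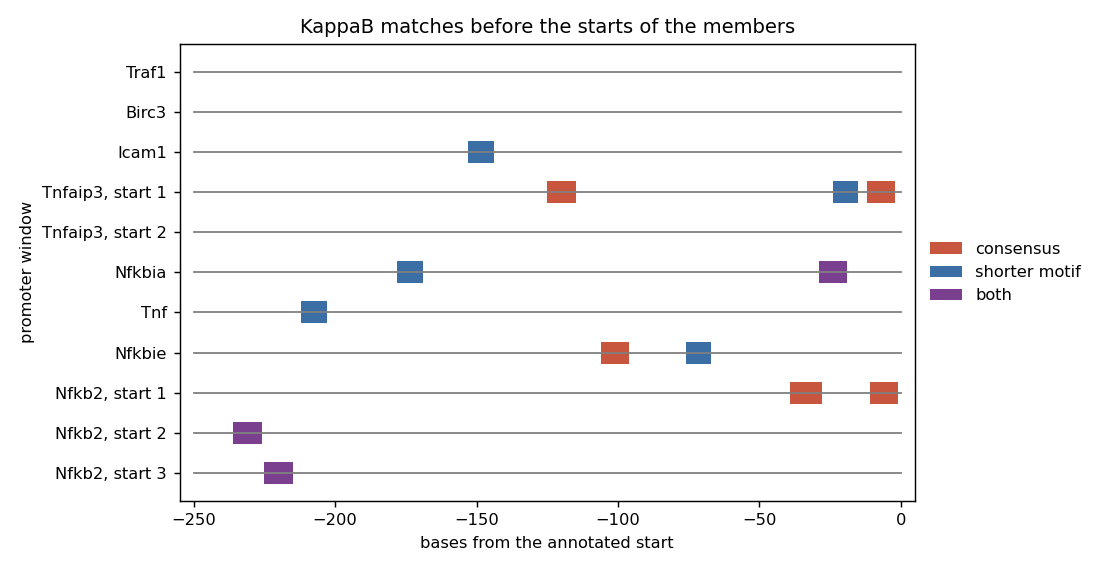
Positions of motif matches in the 11 promoter windows of 8 members, as bases before the annotated start (x axis, 0 at the start); colours mark the NF-kappaB consensus, the shorter motif or a match to both. Windows of Traf1, Birc3 and the second start of Tnfaip3 are empty, and Nfkb2 has matches before each of its 3 starts.

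The subunits went in different directions. Nfkb1 encodes p105, the precursor of p50, which pairs with Rela in the fast branch. Its brighter probe read 670 ± 67.1 (the software's error) for C57BL6/N and 586 ± 58.7 for transgenic lung, and its dimmer probe read 349 ± 35.0 and 344 ± 34.6. Both probes were lower in the transgenic lung after scaling, at -0.34 and -0.17, for a gene value of -0.26, which is little more than the measurement error of a single probe.

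Nfkb2 encodes p100, which restrains Relb until it is processed to p52. It read 1151 ± 115 for C57BL6/N and 1661 ± 166 for transgenic lung, a difference of 0.38. Relb, the partner of p52, had 2 probes. They read 2275 ± 228 and 1203 ± 120 on the C57BL6/N array against 3109 ± 311 and 1694 ± 169 on the transgenic array, at 0.30 and 0.35. Nfkb2 and both Relb probes were thus higher by a similar amount, each between 1.48 and 1.87 times the measurement error. Nfkb2 exceeded Nfkb1 by 0.64 in difference, with an error of 0.29. That error takes the error of a single probe for Nfkb1, though its value is a mean of 2. A constant shift between the arrays leaves that gap as it is by construction, and it ranged from 0.62 to 0.72 over 11 alternatives. Of the subunits outside the 10 genes, Rela, the activating partner of p50, was at -0.13, and Rel, the subunit typical of lymphocytes, was not well above background on either array.

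**Figure D3:**
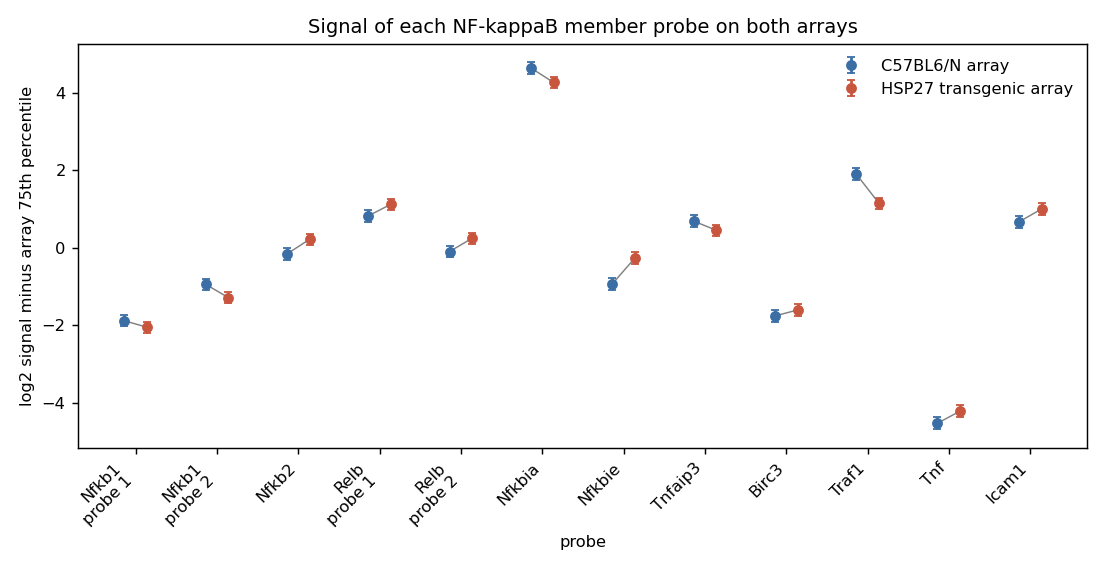
Log2 signal minus the array's 75th percentile for each of the 12 member probes on the C57BL6/N (blue) and transgenic (red) arrays, 1 array each; bars are the scanner software's error of the signal. Levels of different probes are not comparable, and the slope between paired points is the difference: steepest upward for Nfkbie and downward for Traf1.

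The IkappaB genes Nfkbia and Nfkbie lay on opposite sides of 0. Nfkbia encodes IkappaB-alpha, the rapid feedback inhibitor that is resynthesised within the same response. It read 32091 ± 3209 for C57BL6/N and 27415 ± 2741 for transgenic lung, a difference of -0.38. Nfkbie encodes IkappaB-epsilon, an inhibitor whose feedback is slower. It read 673 ± 67.3 and 1190 ± 119, a difference of 0.67 or 1.60-fold, 3.30 times the measurement error. The C57BL6/N signal was the higher for Nfkbia and the lower for Nfkbie. Of the 15495 genes, 8.14% had a difference above that of Nfkbie. The gap between Nfkbie and Nfkbia was 1.05 in log2 difference, or 2.07-fold, with an error of 0.29 and a range of 0.96 to 1.09 over the alternatives. This pair and the pair of Nfkb2 and Nfkb1 were singled out after their values were seen. The promoter windows of both genes, printed above, hold 2 matches each.

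Among other subunits and inhibitors of the family, Bcl3, a nuclear IkappaB protein that works with p50 and p52 dimers, was at 0.65 (1.56-fold), and its signals were 3878 and 6722. Of the 5 genes measured in that group it was the 1 past 1.5-fold, and 0 were past it downward. Nfkbiz, a further nuclear IkappaB protein, lay just under that threshold at 0.55, and passed it under 4 of 11 alternatives, up to 0.69 without scaling. The median of the group was 0.38, the value of Nfkbib, IkappaB-beta, whose 3 probes ran from -0.11 to 0.74. With the brightest probe of each gene that median was 0.14.

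The feedback genes that act upstream of IkappaB did not share a direction. Tnfaip3 encodes A20, a ubiquitin-editing enzyme that shuts off signalling from the tumour necrosis factor receptor. It read 2075 ± 208 for C57BL6/N and 1952 ± 195 for transgenic lung, at -0.24, or 1.16 times the measurement error in size. Birc3 encodes cIAP2, a ubiquitin ligase recruited to receptors by Traf proteins. It read 380 ± 38.1 and 469 ± 47.0, at 0.16, less than the measurement error. Their differences lay at percentiles 29.6 and 69.0 of all genes, within its broad middle.

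Traf1, an adaptor of the tumour necrosis factor receptor family that binds Traf2 and cIAP proteins and is best known from activated lymphocytes and dendritic cells, had the largest difference of the 10. It read 4817 ± 482 for C57BL6/N and 3166 ± 317 for transgenic lung, a difference of -0.75 or 1.69-fold lower, 3.69 times the measurement error in size. Of all genes, 714 had a lower difference. Its partner Traf2 was at -0.78, but as the mean of 2 probes that disagreed, at -1.49 and -0.08.

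Some lymphocyte markers were lower beside Traf1. Of 14 T and NK cell markers, 13 were below 0 and 4 were at least 1.5-fold lower, against 8.31% of all genes. The 4 were the cytotoxic and NK cell genes Ncr1 (-1.32), Gzma (-1.11) and Prf1 (-0.60) and the adhesion receptor Cd2 (-0.90). Ncr1 was dim, with signals of 51.0 and 22.6. The T cell receptor chain Cd3e at -0.15, Cd4 at -0.11 and Cd5 at 0.02, named after their values were seen, were nearer the median of all genes. The summed level was 15.5 for C57BL6/N and 10.6 for transgenic lung, in units of each array's 75th percentile, and 9.55 and 7.91 without Gzma. Of 8 measured B and plasma cell markers, 7 were below 0 and 2 were lower past 1.5-fold, Blk at -0.87 and Cd79b at -0.74. Blk was dim, with signals of 23.4 and 14.2 near the lowest ones well above background (11.9 and 12.5). The summed levels of the 8 were 9.08 and 7.08. Cd79b alone made up that fall, and without it the sums were 3.68 and 3.85. Jchain, of plasma cells, was at 0.37. Ltb, lymphotoxin beta, a ligand of the slower branch made by lymphocytes, was at -0.63, and at -0.49 without scaling. Dendritic cell markers were divided, with 4 of 9 above 0 (Batf3 at 0.75, Cd209a at -0.74) and summed levels of 14.9 and 15.5. The part of these cells in the Traf1 difference was not tested.

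Tnf, the cytokine that both activates the pathway and is induced by it, was dim, and its probe was printed in 10 spots. On the C57BL6/N array the spots read from 51.2 to 64.1 with a median of 56.0, and on the transgenic array from 73.4 to 83.8 with a median of 77.5. All 10 spots were well above background on each array, where the local background averaged 36.9 and 34.2. After scaling, the spots of the arrays still did not overlap, at -4.65 to -4.33 on the C57BL6/N array and -4.28 to -4.09 on the transgenic array. Spot by spot the difference was 0.31 ± 0.11 (SD, n = 10 spots), higher in all 10, and these are repeats of the same RNA and no measure of animals. Over the alternatives the value ran from 0.11, with a normexp correction of median signals, to 0.46, without scaling.

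Icam1 encodes the receptor through which leukocytes adhere to endothelium, and in lung it is also abundant on alveolar type 1 cells. It read 2041 ± 204 for C57BL6/N and 2856 ± 286 for transgenic lung, a difference of 0.34. Markers of both cell types went the other way. All 12 endothelial markers were below 0, 7 of them at least 1.5-fold lower (Tie1 at -1.10, Cldn5 at -1.02), against 8.31% of all genes. Their summed level was 263 against 164. Of 9 measured alveolar type 1 markers, 8 were below 0 and 4 were lower past 1.5-fold (Vegfa and Cav1 both at -1.08), with summed levels of 173 and 114. Monocyte and macrophage markers were higher, in 10 of 10 measured genes. The part of these cells in the Icam1 difference was not tested. Among other adhesion genes, Vcam1, the ligand of very late antigen 4, was at -0.35 over 2 probes at -0.63 and -0.06, and Sele, the endothelial selectin, was not well above background on either array.

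The wider pathway was examined through 85 other genes in 6 groups by role, of which 80 were measured on both arrays. Of these, 12 (15%) were past 1.5-fold upward and 2 (2.50%) past it downward, against 10.2% and 8.31% of all genes, and their median was 0.12. The lower count was 1 without scaling and with median scaling, where 4.89% and 6.87% of all genes passed 1.5-fold downward. The higher count was 8 with the normexp correction, where 6.33% of all genes passed it upward. The groups differed in where their genes lay.

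**Figure D4:**
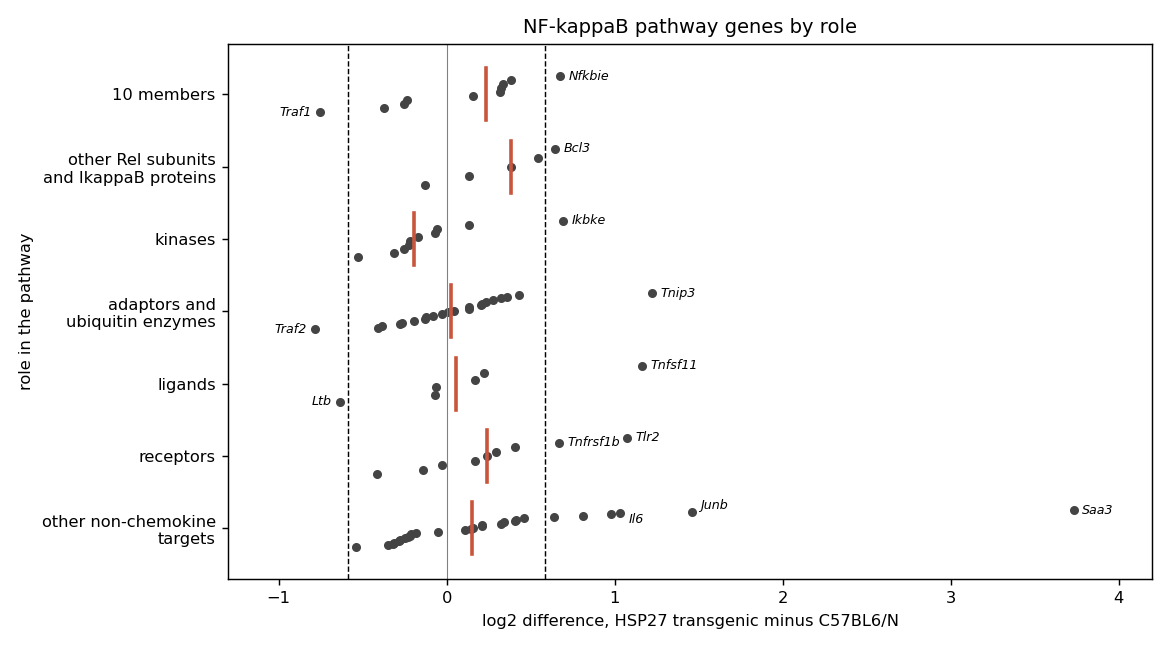
Log2 difference, transgenic minus C57BL6/N, of each measured gene (points) in the 10 members and in 6 groups of other pathway genes; red bars are group medians, dashed lines mark 1.5-fold, and up to 3 genes past them on each side are named. Saa3 at 3.73 stands far to the right, and most kinases lie left of 0.

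Receptors had a median of 0.24, with 2 of 9 past 1.5-fold, both higher, against 10.2% of all genes past it upward. Tlr2, a receptor of bacterial lipoproteins, read 1859 and 4326, at 1.07, and Tnfrsf1b, the second receptor of tumour necrosis factor, read 1083 and 1904, at 0.67. Ligands had a median of 0.05 over 6 genes. Tnfsf11, which activates the receptor Rank, was at 1.16 from dim signals of 15.7 and 38.9, near the lowest signals well above background (11.9 and 12.5). With the normexp correction Tnfsf11 was at 0.18, and the stricter filter left it out. Il1b was at -0.07, and Il1a cleared background in the transgenic lung only, at least 1.26-fold higher.

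Of the kinases that carry the signal, 8 of 10 were below 0, where 0 lay near percentile 54.2 of all genes. Their median was -0.20 against -0.04 over all genes. Without scaling 6 were below 0 and the median was -0.05, against 0.11 over all genes, and with the brightest probe the median was -0.10. Ikbke, an inducible IkappaB kinase relative, was the 1 kinase past 1.5-fold, at 0.69 from 57.9 and 104, and was at 0.36 with the normexp correction. Among 22 adaptors and ubiquitin enzymes the median was 0.03. Tnip3, an A20-binding inhibitor of the pathway, was at 1.22, with probes at 1.17 and 1.27. Its signals were dim, at 67.3 and 174, and its lowest value over the alternatives was 0.77. Traf2, described above, was the 1 gene of that group past 1.5-fold downward, and was at -0.08 with its brightest probe. The A20 gene itself, Tnfaip3, was at -0.24, or 1.16 times the measurement error in size, and at -0.09 without scaling.

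Other target genes that are not chemokines had a median of 0.15 over 28 measured genes. Of these, 6 (21.4%) were at least 1.5-fold higher and 0 lower, against 10.2% and 8.31% of all genes. The higher count was 4 with the normexp correction, where 6.33% of all genes passed 1.5-fold upward. The lower count was 1 with the brightest probe and 1 without a filter, where 8.58% and 9.96% of all genes passed it downward. Saa3, an acute phase protein, read 1148 and 16903, at 3.73. Junb, a subunit of AP-1, was at 1.46 from dim signals of 61.8 and 188, and at 0.86 at its lowest over the alternatives. Il6, the interleukin that drives the acute phase response, was at 1.03 from 79.9 and 181, or 0.54 with the normexp correction. Saa3, Junb and Il6, the highest of the 28 targets, were thus further from 0 than any of the 10 members, a shorter list. With the normexp correction Il6 was nearer 0 than Nfkbie (0.59) and Traf1 (-0.71). Monocyte and macrophage markers were higher beside these groups, in 10 of 10 measured genes and in 9 past 1.5-fold (C1qb at 2.41, C1qa at 1.74), with a summed level of 16.3 for C57BL6/N and 38.3 for transgenic lung. Fibroblast markers had a median of 0.80 and summed levels of 159.7 and 259, and conducting airway markers a median of 3.57 and summed levels of 390.0 and 473. The airway markers did not move alike, and ran from -0.19 for Scgb1a1 to 9.13 for Reg3g, with 8 of 11 at least 1.5-fold higher. Without Bpifa1 their sums were 389.8 and 421. Alveolar macrophage markers had a median of -0.47, with 3 of 9 above 0, but summed levels of 140.2 and 139.9. Neutrophil markers were divided, with 4 of 8 measured above 0 (Mmp8 at 1.22, Cxcr2 at -1.28). Their median was -0.05 and their summed levels were 48.9 and 40.3, or 11.1 and 8.93 without Csf3r. The part of these cells in the differences of Nfkbie, the receptors and the targets was not tested.

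Of the 11 other ways of processing that were tried, 7 changed the values of Nfkbie and Traf1; the filters on dim probes and the choice among probes could not, since each has 1 probe that passes both filters. Over those 7, Nfkbie ran from 0.59 to 0.82 and Traf1 from -0.75 to -0.61, past 1.5-fold in each. Keeping outlier spots and the deposited table hardly could differ, and left Nfkbie at 0.67 and Traf1 at -0.75. No scaling and median scaling move every gene by the same amount. Only quantile normalization, cyclic loess and normexp could move these genes relative to others. The other 8 members had 7 or 8 alternatives that changed their values, kept their direction in these and stayed within 1.5-fold. Nfkbie came closest to the line with the normexp correction, at 0.59.

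**Figure D5:**
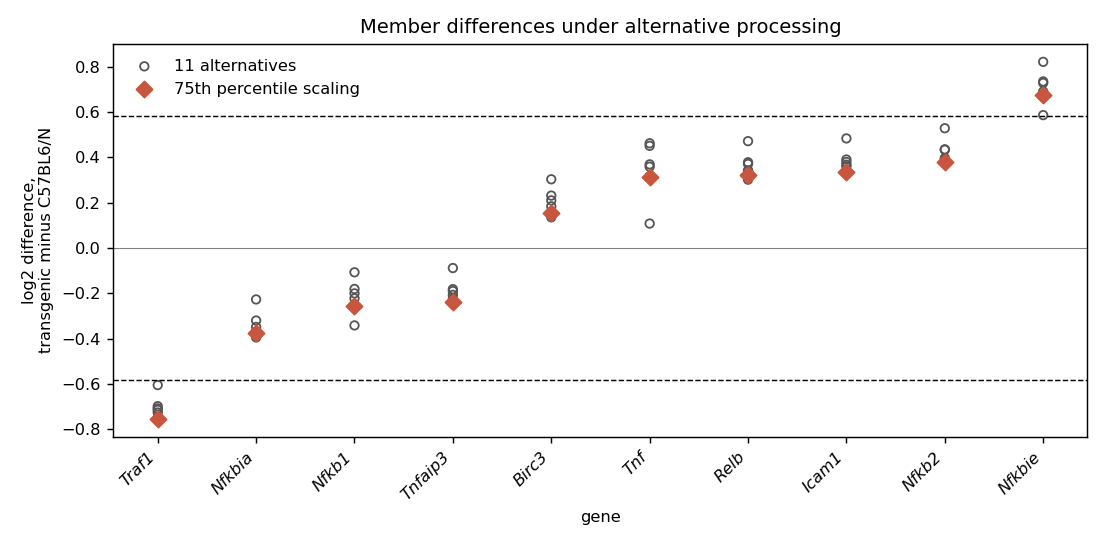
Log2 difference of each member, transgenic minus C57BL6/N, with scaling by the 75th percentile (red diamonds) and under 11 alternatives (open circles, which lie on the diamond where an alternative leaves the value as it is); dashed lines mark 1.5-fold. Every circle lies on the same side of 0 as its diamond, and circles of Traf1 and Nfkbie alone lie past the dashed lines.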

How the data were processed

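Whole lung RNA was extracted with Trizol, amplified and labelled with Cy3, per the labels' protocols. The deposited array files hold an intensity for each spot from Agilent Feature Extraction 11.5.1.1, background-subtracted and detrended with no scaling between arrays, with its error and flags as other columns, per the file headers, which give both arrays the same slide and scan. The authors' deposited value table is also an intensity and equalled that signal within 0.1% at all 39012 probes with 1 spot.

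Control and outlier spots were left out, log2 signals of a probe's spots were averaged, and the array's 75th percentile (1287 and 1426) was subtracted. A probe was used if at least 50% of its spots were well above background and none saturated on both arrays, which left 26387 probes, and a gene's value is the mean of its probes. Of 39429 probes, 27508 (69.8%) had a symbol through RefSeq accessions of assembly GRCm38.p6; the array design names mm9. Summed levels are of linear values. A gene well above background on 1 array has a bound, against the higher of the lowest such signal and its own dim value.

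The members and lists were chosen with earlier results of these data known. Named genes were the 10 members, up to 3 per direction and pathway list past 1.5-fold, Rela, Rel, Il1b, Il6, Vcam1 and Sele. The 2 largest differences of most cell lists set beside a member, and the label checks, were named too. Named outside that rule were Nfkbiz, Nfkbib, Il1a, Prf1, Cd2, Cd3e, Cd4, Cd5, Jchain, Scgb1a1, Myh6, Cfd and Csf3r. With 2 arrays no likeness of pattern between genes could be measured. The steps were tested on simulated data. Normexp used median signals with an offset of 50, without spots at or below their local background. Python 3.11.15, pandas 2.3.3, R 4.3.3 and limma 3.58.1 were used. A gene of the cell type lists is not reported here, and the counts and sums of its list leave it out.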

Additional observations from a re-analysis of the deposited data

How the results depend on the processing

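The alternatives were no scaling, median scaling, quantile normalization, cyclic loess, normexp, no filter and a stricter filter on dim probes, outlier spots kept, the brightest or the median probe, the deposited table, and a 2-fold threshold. The 10 members kept their direction under the 7 or 8 alternatives that changed each one's value. Of these, keeping outlier spots and the deposited table changed the members very little. The filters on dim probes and the median probe changed none of them. At 2-fold 0 members were higher and 0 lower. Without scaling the median of the members was 0.38 and that of the other pathway genes 0.27. The median of all genes then shifted from -0.04 to 0.11. The pathway count at least 1.5-fold lower was 1 without scaling, against 4.89% of all genes, and 1 with median scaling, against 6.87%. Of 308 values of single members and single pathway groups under alternatives, 38 moved by more than the repeat-spot spread or 1.5 times in count. No paired analysis was possible because each group holds 1 array. Tnf, Tnfsf11 and Ikbke were dim, and with normexp they were at 0.11, 0.18 and 0.36. The number of arrays limits every value.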
